A study of Mus musculus with 40 samples.

Results

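The genes described here are the nuclear genes of mitochondrial complex I, the respiratory chain enzyme that takes electrons from NADH. They were taken by symbol, as every mouse gene of the count table whose symbol begins with Nduf, without 1 row whose symbol holds -ps. The rule itself used no measured value, though it was set with earlier results of these data known. It gave 49 of the 43430 rows of the table, and 45 of them had counts high enough to be tested among 11853 genes. The 45 comprised 36 subunits of complex I, 8 assembly factors with symbols beginning Ndufaf, and Ndufa4, which carries the name but is a subunit of complex IV. The other 4 rows were nearly silent in these cells. Ndufa4l2, a paralog of Ndufa4, had at most 3 counts in a library and 11 in all 40. Ndufa11b, Ndufb4c and Ndufs6b, which are annotated as processed pseudogenes, had 3, 1 and 7 counts in all. Ndufb1 was not analysed here.

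RNA was sequenced from macrophages that were differentiated from bone marrow with M-CSF (BMDMs) of 5 WT and 5 NDI1 mice. NDI1 mice (VAV-Cre NDI1) expressed NDI1, a yeast NADH dehydrogenase made of a single protein, from a lox-stop-lox cassette in the Rosa26 locus that Vav-iCre opens in hematopoietic lineages. WT mice were littermates that carried Vav-iCre without NDI1, so every library came from a Cre-carrying animal. The strain label was C57/Bl6, and per the paper the NDI1 line had a mixed background of its J and N substrains. For the study as a whole the paper states that both sexes were used and that the mice were young adults. Cells of each mouse were left untreated, given LPS at 100 ng/ml for 4 h, given 500 nM piericidin A, or pretreated with piericidin A for 30 min and then given LPS. All were cultured with methyl pyruvate and uridine, which let cells with an impaired respiratory chain keep growing. Each of the 8 groups had 5 libraries, 1 per mouse. Below, WT values are given in the order of mice 449, 452, 453, 496 and 520, and NDI1 values in the order of mice 447, 460, 461, 503 and 521.

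Complex I is shaped like an L. Its matrix arm holds the N module, where NADH is oxidized, and the Q module, where electrons pass through iron-sulfur clusters to ubiquinone, and its membrane arm pumps protons. Core subunits do the catalysis, of which the matrix ones are nuclear and the membrane ones are encoded by mitochondrial DNA (mt-Nd genes), accessory subunits form a shell around them, and the assembly factors join the modules without staying in the finished enzyme. Piericidin A blocks the ubiquinone site, NDI1 accepts electrons from NADH past this block, and LPS, a bacterial cell wall component, turns macrophages to an inflammatory program in which respiration is known to change.

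The libraries held between 6950748 and 13552070 counts, of which between 8678 and 25569 fell on the Nduf genes. All 8 macrophage markers were above the filter in these cells, with a summed level between 19674 and 38691 CPM (counts scaled to library size, with TMM normalization factors). Of 18 markers of other cells (lymphocytes, granulocytes, dendritic and red blood cells, fibroblasts and endothelium), 12 passed the filter and 3 had at most 3 counts in every library. Their summed level ran from 11.8 to 133 CPM in untreated WT, from 17.0 to 405 with piericidin A, from 26.9 to 283 with LPS and from 45.6 to 609 with both. It ran from 8.54 to 218 over the NDI1 libraries. The part of these cells in the results was not tested. The treatments acted on the cells, since LPS raised Il1b, a cytokine gene, by 8.84 on the log2 scale in WT and piericidin A raised Gdf15, a secreted stress factor, by 4.21 (edgeR, both past an adjusted p of 0.05).

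The scaling bears on every LPS value. The Nduf genes took 0.164 to 0.194 percent of all counts in untreated WT libraries and 0.0963 to 0.137 percent in WT libraries with LPS. The TMM factors, which set the bulk of genes in each library to a common level, were 1.25 to 1.37 in the former and 0.696 to 0.876 in the latter. With library totals alone and no such factors, the median of all 11853 genes in WT with LPS against untreated stood at −0.78 on the log2 scale, against −0.01 with TMM. LPS changes are therefore given relative to the median gene of the library, and the change per cell was not measured.

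Stretches just before the transcription start are shown for the member that responded to piericidin A under LPS (Ndufa6) and for the assembly factors that fell with LPS (Ndufaf4 and Ndufaf7). They are from RefSeq on GRCm38.p6 and lie at chr15:82354323-82354541 on the minus strand (219 bases, the last 32 bases before the annotated start), chr4:24897833-24898082 on the plus strand (250 bases) and chr17:78937067-78937134 on the plus strand (68 bases, cut where an exon of the neighbour Cebpz begins in the window). They are written 5′ to 3′ in lower case, with capitals for CGCATGCG, the palindrome bound by NRF1, a transcription factor of many respiratory chain genes.
Ndufa6: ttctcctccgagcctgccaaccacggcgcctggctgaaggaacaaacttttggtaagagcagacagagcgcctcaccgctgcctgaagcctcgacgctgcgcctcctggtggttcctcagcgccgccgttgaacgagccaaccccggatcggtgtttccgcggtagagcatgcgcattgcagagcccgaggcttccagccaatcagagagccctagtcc
Ndufaf4: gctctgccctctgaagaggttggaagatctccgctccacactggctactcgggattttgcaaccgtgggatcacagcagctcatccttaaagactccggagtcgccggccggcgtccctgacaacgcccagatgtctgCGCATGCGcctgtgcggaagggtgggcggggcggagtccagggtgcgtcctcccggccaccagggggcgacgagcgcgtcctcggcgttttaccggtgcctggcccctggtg
Ndufaf7: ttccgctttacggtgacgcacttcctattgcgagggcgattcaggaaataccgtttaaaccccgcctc

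Of the 3, Ndufaf4 alone held CGCATGCG, at position 139 of its stretch. Windows of 250 bases before to 50 bases after the start were at hand for 40 of the 45 tested members and for 27025 genes in all. On either strand, CGCATGCG stood in the windows of 4 members (10 percent, Ndufa8, Ndufa11, Ndufaf4 and Ndufaf5) and of 2.07 percent of genes. CCGGAAG, the core bound by ETS factors such as GABP, stood in 6 members (15 percent) and 9.93 percent of genes. AAGATGG, the core of the YY1 motif, stood in 8 members (20 percent), Ndufs4 among them, and 7.28 percent of genes. These matches are descriptions of letters, not binding sites. The tested members lay on 17 chromosomes, with at most 6 on one (chromosome 17), and Ndufa1 and Ndufb11 lay on the X chromosome.

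Subunit transcripts were far more abundant than assembly factor transcripts. Per kb of the principal transcript and averaged over the 40 libraries, the 36 subunits had a median level of 37.6 CPM per kb and the 8 assembly factors 4.28. With the gene length listed in the count table these medians were 11.9 and 2.07, and single genes moved more, Ndufa7 from 127 to 15.7 and Ndufb8 from 88.5 to 9.78, so the order below holds for the principal transcript alone. Within the subunits, Ndufa7, an accessory subunit of the matrix arm, had the highest level, 127 CPM per kb, and Ndufab1, the mitochondrial acyl carrier protein, the lowest, 2.22. The core subunits of the N module stood at 19.4 (Ndufs1, which carries several iron-sulfur clusters), 29.4 (Ndufv2, which carries another) and 36.2 CPM per kb (Ndufv1, which binds NADH and FMN). Among those of the Q module, levels were 26.8 (Ndufs3), 31.9 (Ndufs8, an iron-sulfur subunit) and 39.8 CPM per kb (Ndufs7, next to the ubiquinone site). Subunits of one enzyme thus had transcript levels that differed widely, also within a module. Accessory subunits of the distal membrane arm ran from 2.58 (Ndufb4) to 88.5 CPM per kb (Ndufb8), those near the core of the membrane arm from 10.4 (Ndufs5) to 66.5 (Ndufc2), and those of the matrix arm from 12.9 (Ndufa12) to 127. Among the assembly factors, Ndufaf4 was lowest at 1.73 and Ndufaf8 highest at 12.0 CPM per kb. Some values may be too low, since 11 of the 45 share more than 5 percent of their 75-base windows with transcripts of other genes, 35.2 percent in the case of Ndufb4. For some of them, such as Ndufb6 with Smim27, the other gene overlaps on the opposite strand. Whether reads were lost was not tested. Ndufa4 of complex IV stood at 88.2 CPM per kb.

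**Figure D1:**
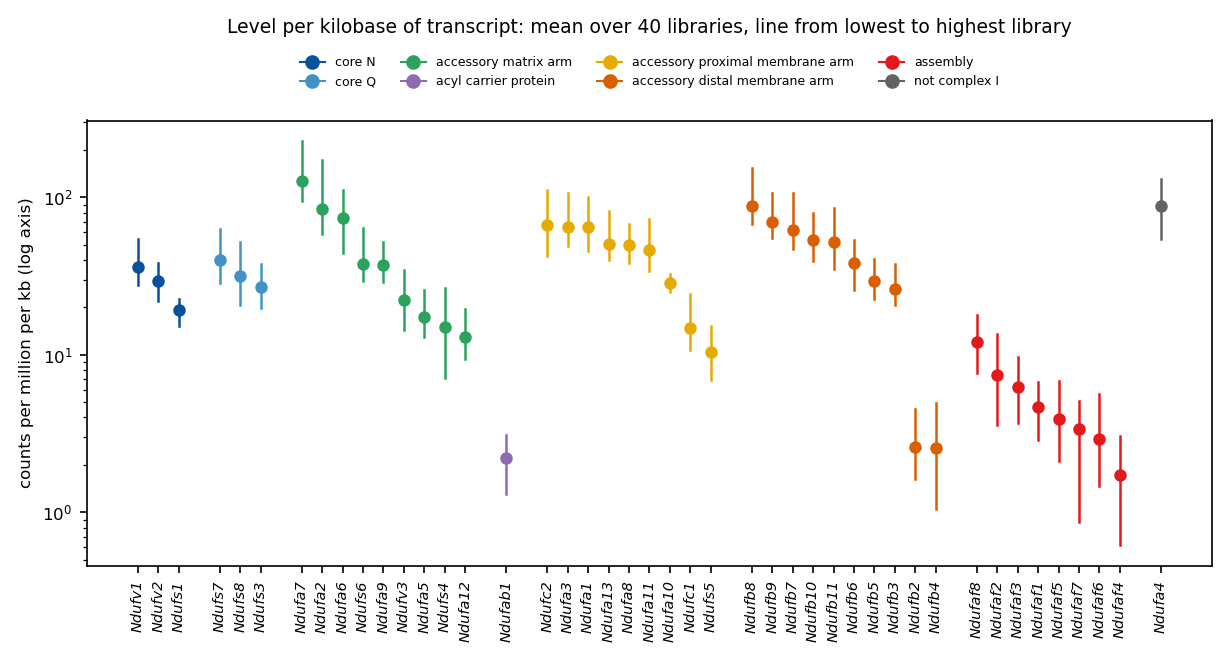
Level of 44 of the 45 tested Nduf genes in CPM per kb of its principal transcript (log axis), grouped by module, with the mean over 40 libraries as a point and the lowest and highest library as a line. The 8 assembly factors lie between 1.73 and 12.0, below most subunits, whose median is 37.6.

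Over the 45 members, the median coefficient of variation between the 5 mice was 11.9 percent in untreated WT and 11.9 percent in untreated NDI1. It was 13.9 and 16.7 percent with LPS, 16.0 and 17.7 percent with piericidin A, and 19.4 and 22.9 percent with both. Ndufa10, an accessory subunit, had the smallest (6.85 percent, median over the 8 groups) and Ndufaf5, a low-count assembly factor, the largest (28.7 percent). Summed over the 36 subunits, untreated WT stood at 1243 ± 95.7 CPM and untreated NDI1 at 1235 ± 89.8 CPM (SD, n = 5 each). The 8 assembly factors summed to 51.5 ± 4.20 CPM and 52.9 ± 3.54 CPM.

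The first question was how LPS changed the Nduf genes, in WT and in NDI1 BMDMs. In WT BMDMs 4 of the 45 rose (Ndufs4, Ndufc1, Ndufa1 and Ndufa11, all subunits) and 2 fell (Ndufaf4 and Ndufaf7, both assembly factors) relative to the median gene (edgeR quasi-likelihood test, adjusted p under 0.05). Over all genes 62.5 percent passed, 31.5 percent higher and 31 percent lower. With library totals alone all 45 values were below 0 and 41 passed, against 81 percent of all genes and 66.3 percent lower, while the 4 that rose with TMM then had values between −0.41 and −0.11. The balance also moved with the settings under TMM, to 2 higher and 4 lower with at least 10 counts in every library and to 3 higher and 5 lower with only the compared groups. With the mouse as a block, 13 passed (9 higher, 4 lower), against 72 percent of all genes. In NDI1 BMDMs 5 rose and 2 fell, 7 of 45, against 62.7 percent of all genes, 31.5 percent higher and 31.2 percent lower. The split was 3 higher and 5 lower with at least 10 counts in every library. With DESeq2 or RLE factors 6 passed in NDI1, 3 of them higher, against 7515 and 7438 genes in all. With the block there 16 passed (11 higher, 5 lower), against 72.4 percent of all genes, and with library totals alone 36 passed, all lower, against 80.8 percent of all genes and 66.1 percent lower. With TMM scaling the Nduf genes thus held a smaller share of calls than the genes as a whole in both genotypes, while with library totals alone their share was above that of all genes in WT and close to it in NDI1.

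The sizes were small as well. In WT the member values ran from −0.73 to 0.66 on the log2 scale with a median of 0.07, beside −0.01 over all genes. Their median size without sign was 0.16, against 0.64 for all genes, and 3 members exceeded the latter. The 95% interval lay within ±0.5 on the log2 scale for 21 of 45 members and within ±1 for 41. The intervals of the other members reached past those bounds at this depth. In NDI1 the median was 0.08.

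Ndufs4, an accessory subunit of the matrix arm whose loss in people and mice gives a severe complex I deficiency, had the largest rise. It is ENSMUSG00000021764, on mm10 chr13:114287795-114388094, minus strand, and its exons overlap no other annotated gene. In WT its level was 18.1, 18.5, 18.6, 21.1 and 22.0 CPM untreated and 32.4, 24.0, 29.9, 33.6 and 36.0 CPM with LPS. Every LPS library lay above every untreated one. The means were 19.6 ± 1.74 and 31.2 ± 4.57 CPM (SD, n = 5), a log2 fold change of 0.66 (SE 0.22, edgeR adjusted p = 0.00798). With library totals alone it was −0.11. In NDI1 the level was 18.1, 17.7, 12.1, 18.5 and 24.5 CPM untreated and 24.8, 22.9, 15.4, 30.4 and 45.4 CPM with LPS. There the groups overlapped, but each mouse was higher with LPS, and the log2 fold change was 0.61 (SE 0.22, edgeR adjusted p = 0.0144, and 0.0691 with only the compared groups). Mouse 461 was lowest and mouse 521 highest in both conditions.

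Ndufa1 and Ndufc1, small subunits of the membrane arm, rose by less. Ndufa1 stood at 21.6, 22.5, 27.5, 19.1 and 22.0 CPM in untreated WT and at 23.1, 24.6, 32.9, 32.8 and 32.6 CPM with LPS. The groups overlapped, since mice 449 and 452 with LPS lay below untreated mouse 453. Its log2 fold change was 0.37 in WT (SE 0.14, edgeR adjusted p = 0.0162) and 0.45 in NDI1 (SE 0.14, adjusted p = 0.00447), where the mean went from 21.9 ± 2.32 to 29.9 ± 1.91 CPM. In WT the call was lost without mouse 496 or 520, with no filter on low counts (adjusted p = 0.0698) and with only the compared groups (adjusted p = 0.0839). Ndufc1 stood at 15.4, 13.3, 18.9, 16.1 and 16.1 CPM in untreated WT and at 22.6, 17.9, 23.7, 22.1 and 18.8 CPM with LPS. Mice 452 and 520 with LPS lay just below untreated mouse 453. Its log2 fold change was 0.40 in WT (SE 0.15, edgeR adjusted p = 0.0212, lost without mouse 449 or 496 and under both other filters on low counts). In NDI1 the value was 0.14 (adjusted p = 0.445), and the difference between genotypes, −0.26 with an interval from −0.69 to 0.17, did not pass.

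Ndufa11, a membrane arm subunit at the contact with complex III, passed in both genotypes but narrowly. Its mean was 22.3 ± 2.55 CPM in untreated WT and 28.6 ± 4.21 CPM with LPS, a log2 fold change of 0.36 (SE 0.15, edgeR adjusted p = 0.0331), and in NDI1 the value was 0.35 (adjusted p = 0.0397). The WT call was lost without mouse 449, 453 or 520, under both other filters on low counts and with only the compared groups. The NDI1 call was lost without mouse 460, 503 or 521, under those settings too, and with DESeq2 or RLE factors (adjusted p = 0.0547 and 0.0560). Of its exon bases 6.4 percent overlap the gene Vmac, and the strand setting of the counting is not given. Outside the naming rule and chosen after their values were seen, Ndufb6 (0.49, adjusted p = 0.00919) and Ndufa7 (0.38, adjusted p = 0.0412) rose in NDI1 with LPS in edgeR. In WT they had values of 0.22 and 0.31 (adjusted p = 0.249 and 0.0942). With DESeq2 or RLE factors 3 members were higher in NDI1, Ndufs4 and Ndufa1 among them, so Ndufb6 and Ndufa7 did not both keep their calls. Ndufb6 shares 39.0 percent of its exon bases with Smim27 on the opposite strand. No Nduf gene differed between genotypes in its LPS change, as given with the other genotype comparisons.

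The 2 that fell with LPS were assembly factors. Library totals alone shift the bulk of genes down with LPS, so their unchanged direction there followed from the scaling and is no check. Ndufaf4, which works with Ndufaf3 early in the assembly of the Q module, is ENSMUSG00000028261 on mm10 chr4:24898083-24905001, plus strand. In WT it stood at 6.44, 6.29, 7.72, 9.62 and 6.53 CPM untreated and at 3.54, 5.13, 2.90, 4.66 and 6.06 CPM with LPS. Every LPS library lay below every untreated one. The means were 7.32 ± 1.40 and 4.46 ± 1.26 CPM, a log2 fold change of −0.72 (SE 0.22, edgeR adjusted p = 0.00501). In NDI1 it stood at 7.62, 6.20, 9.25, 9.68 and 9.52 CPM untreated and at 6.26, 4.18, 3.38, 4.95 and 6.45 CPM with LPS. All 5 mice were lower with LPS, with a log2 fold change of −0.74 (SE 0.22, edgeR adjusted p = 0.00353). These values rest on 25 to 133 counts a library.

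Ndufaf7, an arginine methyltransferase that acts during assembly, is on mm10 chr17:78937135-78948052, plus strand. In WT it stood at 6.28, 6.35, 7.31, 5.40 and 7.17 CPM untreated and at 3.95, 4.38, 5.58, 1.51 and 4.09 CPM with LPS. All 5 mice were lower, though mouse 453 with LPS lay just above untreated mouse 496. The means were 6.50 ± 0.771 and 3.90 ± 1.48 CPM, a log2 fold change of −0.73 (SE 0.23, edgeR adjusted p = 0.00593). In NDI1 it went from 7.09, 7.20, 8.36, 5.91 and 8.80 CPM to 5.60, 3.95, 3.38, 2.14 and 5.27 CPM. No LPS library reached the untreated range, and the log2 fold change was −0.87 (SE 0.23, edgeR adjusted p = 0.00115). The lowest value in each genotype with LPS, in mice 496 and 503, came from the mice that also stood apart from the others on the 2nd principal component of all genes.

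**Figure D2:**
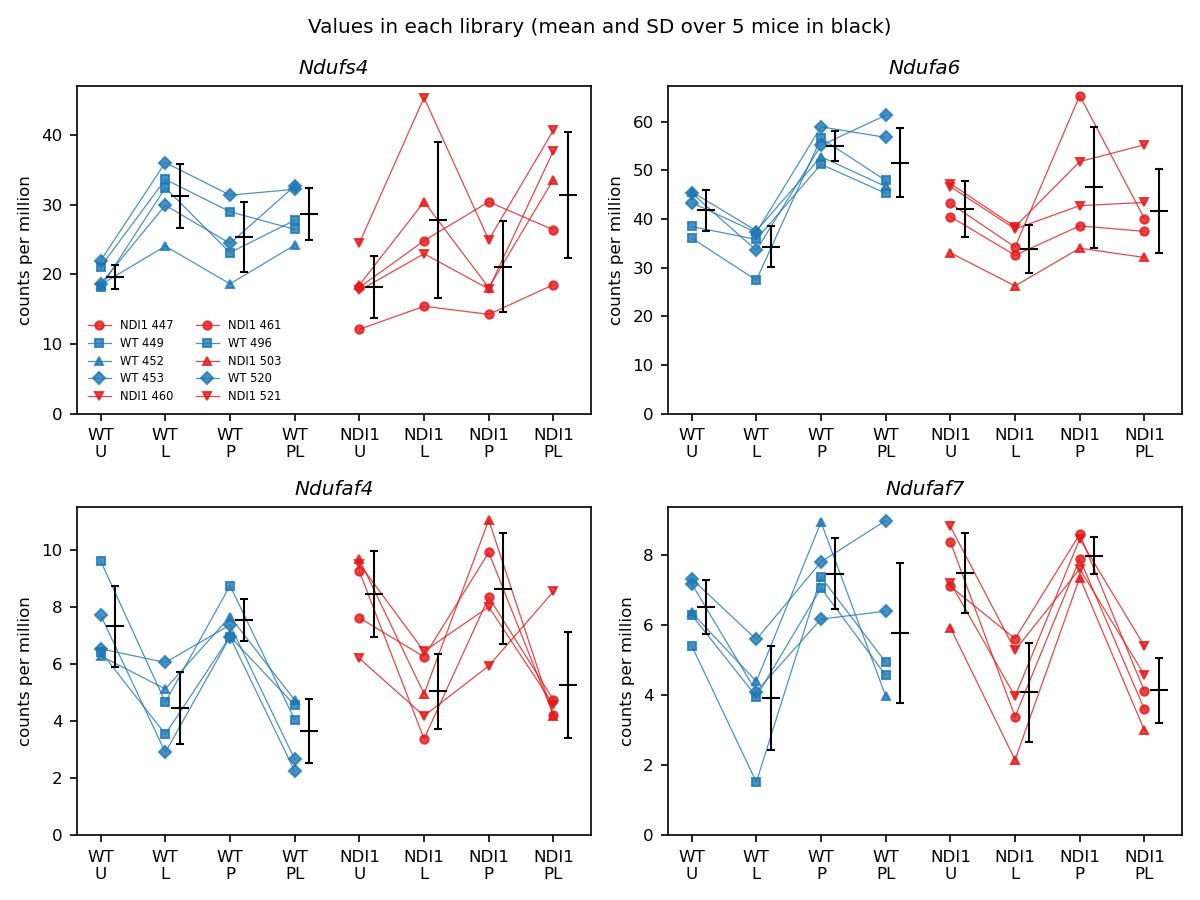
CPM of Ndufs4, Ndufa6, Ndufaf4 and Ndufaf7 in each library by genotype and treatment, with lines joining the libraries of a mouse and the mean ± SD (n = 5) in black. In WT with LPS Ndufs4 lies above its untreated libraries (with TMM scaling, not with library totals alone) and Ndufaf4 below them. Ndufa6 in WT with both agents, 45.3 to 61.3 CPM, lies above WT with LPS alone, 27.4 to 37.6 CPM.

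The other assembly factors did not pass in WT with LPS. Their log2 values were −0.34 for Ndufaf1, a factor for the membrane arm (adjusted p = 0.0865, and 0.0392 with the mouse as a block in edgeR), −0.12 for Ndufaf2, a paralog of Ndufa12 that acts late in assembly, and −0.17 for Ndufaf3. They were 0.49 for Ndufaf5, which hydroxylates Ndufs7 (adjusted p = 0.0900, and 0.0310 with the block), 0.01 for Ndufaf6 and 0.30 for Ndufaf8, a partner of Ndufaf5. The 8 factors thus had values on both sides of 0.

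The core subunits named here did not pass with LPS in either genotype by edgeR, with or without the block. In WT their log2 values were −0.05 for Ndufs1, 0.09 for Ndufv2 and 0.13 for Ndufv1 in the N module. In the Q module they were −0.22 for Ndufs8, −0.20 for Ndufs7 and 0.01 for Ndufs3. Ndufs1 shows how close the groups were, with 54.4 ± 4.33 CPM untreated and 52.4 ± 5.52 CPM with LPS, and an interval of its log2 fold change from −0.25 to 0.14. Ndufa4 of complex IV had a value of 0.33 in WT (adjusted p = 0.0827, and 0.00674 with the block).

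The next comparison was piericidin A without LPS. In WT, 0 of 45 Nduf genes passed in edgeR, against 14.8 percent of all genes. DESeq2 called 1 member, against 2161 genes in all. At an unadjusted p under 0.05 there were 8 members in edgeR, and the share of all genes at that p is not given here. The Nduf values nevertheless lay mostly on one side, since 42 of 45 were above 0 and the median was 0.23 on the log2 scale beside −0.00 over all genes. Of the 45 members 21 were higher in all 5 mice, a larger share than the 21.5 percent of all genes. By contrast 0 of 45 were lower in all 5, against 21.7 percent of all genes. With library totals alone the median over all genes was −0.13 and that of the members 0.10, which is about as far apart. The libraries of a mouse varied together, and with the mouse as a block 12 members passed, all higher, against 34.2 percent of all genes called in either direction and 17.2 percent called higher.

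The 12 were Ndufa2, Ndufa3, Ndufa6, Ndufa7, Ndufa9, Ndufb3, Ndufb5, Ndufb11, Ndufs4, Ndufs7, Ndufv1 and Ndufv3, which span the N module, the Q module and the membrane arm. They include core subunits. Ndufs7, which holds the last iron-sulfur cluster before ubiquinone, went from 38.1 ± 1.55 to 46.9 ± 7.48 CPM, with a log2 fold change of 0.30 (adjusted p = 0.188 without and 0.0438 with the block, edgeR). Ndufv1, the NADH-binding subunit, went from 54.2 ± 9.86 to 64.9 ± 11.2 CPM, with a value of 0.26 (adjusted p = 0.280 without and 0.0146 with the block). Both were higher in 5 of 5 mice. Ndufs4 stood at 23.1, 18.6, 24.4, 29.0 and 31.4 CPM with piericidin A, each above the same mouse untreated, with a log2 fold change of 0.36 (adjusted p = 0.272 without and 0.0301 with the block).

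Other core subunits had values of 0.24 (Ndufv2), 0.24 (Ndufs8), 0.07 (Ndufs3) and −0.06 (Ndufs1) and did not pass. The largest value, 0.49, was that of Ndufa2, an accessory subunit of the matrix arm (adjusted p = 0.0624 without and 0.0194 with the block, edgeR). It was named for its size after the values were seen. The assembly factors had values between −0.24 (Ndufaf1) and 0.44 (Ndufaf5), and 0 of 8 passed in edgeR with or without the block, with 0 at an unadjusted p under 0.05. All 45 intervals lay within ±1 on the log2 scale and 18 within ±0.5, so a change of over 2-fold lay outside each of them.

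In NDI1 BMDMs piericidin A gave 0 calls among the Nduf genes and 0 percent over all genes in edgeR, 0 members had an unadjusted p under 0.05, and DESeq2 called 0. The median was 0.10 with 43 of 45 values above 0. This rested largely on 1 mouse. The median member differed by 0.50 in mouse 447 (44 of 45 above 0), by 0.04 in mouse 460, −0.00 in mouse 461, 0.04 in mouse 503 and −0.06 in mouse 521, and without mouse 447 the fitted median was 0.02. In WT the 5 medians were 0.10, 0.13, 0.28, 0.43 and 0.18, all above 0, and leaving out a mouse moved the fitted median between 0.18 and 0.27. Mouse 447 thus lay above all WT mice and the other NDI1 mice below all of them.

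The difference of the piericidin A effect between genotypes had a median of −0.11 over members, with 36 of 45 values below 0. This median rested on single mice, being −0.21 without mouse 447, −0.06 without mouse 496 and −0.04 without mouse 521. By edgeR 0 members passed, against 1.27 percent of all genes, with 0 at an unadjusted p under 0.05 and 0 by DESeq2. With the mouse as a block 0 members passed as well, with 2 at an unadjusted p under 0.05, against 8.96 percent of all genes. All 45 intervals of this difference lay within ±1 in both fits, and 11 lay within ±0.5 without the block and 27 with it.

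**Figure D3:**
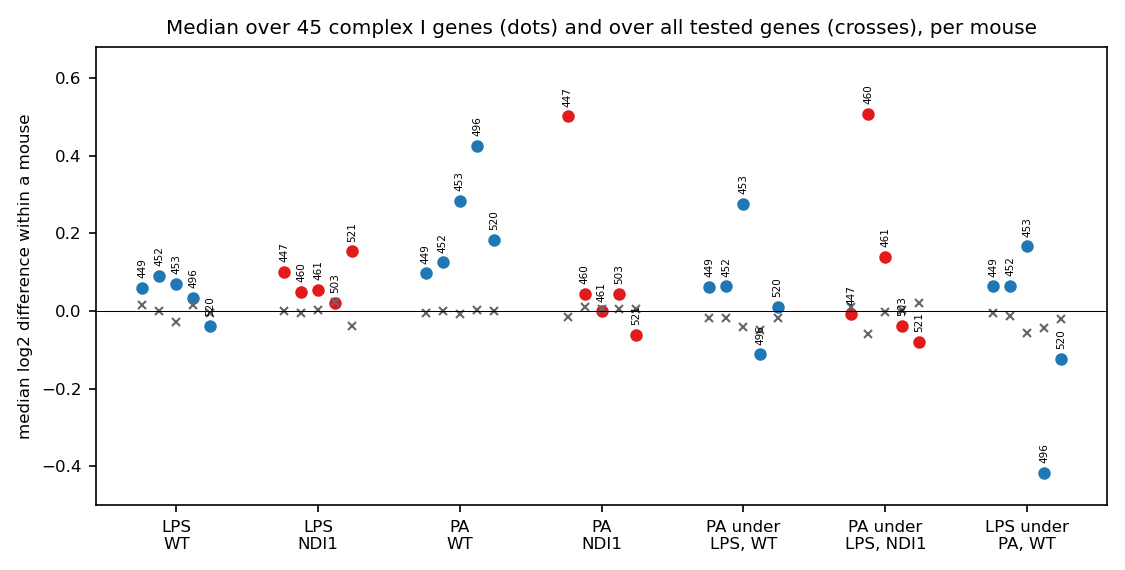
Median log2 difference between the libraries of a mouse over the 45 tested Nduf genes (dots) and over all tested genes (crosses), for each comparison and mouse. With piericidin A alone the 5 WT mice lie at 0.10 to 0.43, while of the NDI1 mice 447 lies at 0.50 and the others near 0.

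Piericidin A was also compared under LPS. In WT, 1 Nduf gene of 45 passed, Ndufa6, which was higher, against 16.7 percent of all genes, 7.81 percent higher. Ndufa6 is an accessory subunit of the matrix arm that lies at its joint with the membrane arm and binds an acyl carrier protein. It is on mm10 chr15:82350139-82354291, minus strand, and its exons overlap no other annotated gene. In WT it stood at 35.8, 37.6, 33.6, 27.4 and 37.2 CPM with LPS and at 45.3, 46.7, 61.3, 47.9 and 56.8 CPM with piericidin A before LPS. Every library with both agents lay above every library with LPS alone. The means were 34.3 ± 4.17 and 51.6 ± 7.05 CPM, a log2 fold change of 0.59 (SE 0.14, 95% interval 0.30 to 0.88, edgeR adjusted p = 0.00437), or 1.50-fold.

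Ndufa6 had the same order without LPS. It stood at 38.5, 45.6, 45.3, 36.1 and 43.4 CPM in untreated WT and at 51.3, 52.8, 55.2, 56.6 and 59.0 CPM with piericidin A, again with no overlap. The log2 fold change was 0.39 (SE 0.14, edgeR adjusted p = 0.0522, and 0.00131 with the mouse as a block). LPS alone went the other way by value, with −0.28 in WT (adjusted p = 0.0817, and 0.0103 with the block) and −0.31 in NDI1 (adjusted p = 0.0535, and 0.00445 with the block).

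In NDI1 Ndufa6 stood at 34.2, 38.4, 32.5, 26.2 and 38.0 CPM with LPS and at 40.1, 55.3, 37.5, 32.1 and 43.4 CPM with both. Each of the 5 mice was higher with both, but the groups overlapped. The log2 fold change was 0.30 with an interval from 0.01 to 0.59 (edgeR adjusted p = 1.00). The difference between genotypes was −0.29 with an interval from −0.70 to 0.12 (edgeR adjusted p = 0.573), so a different response of Ndufa6 in NDI1 was not shown.

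No other member passed under LPS in WT without the block. With the mouse as a block 5 members passed, all higher, against 34.5 percent of all genes. They were Ndufa6, Ndufb10, Ndufb11, Ndufs7 and Ndufaf7. Ndufs7 had a value of 0.34 (adjusted p = 0.124 without and 0.0323 with the block, edgeR) and was higher in 5 of 5 mice. Ndufaf7, which fell with LPS, stood at 4.56, 3.97, 8.97, 4.93 and 6.39 CPM with both agents, with a value of 0.54 (adjusted p = 0.109 without and 0.0375 with the block). The median over members was 0.10, with 29 of 45 above 0, and the medians by mouse were 0.06, 0.06, 0.28, −0.11 and 0.01, and it was 0.02 without mouse 453. In NDI1 edgeR called 0 members and 0 percent of all genes, 1 member had an unadjusted p under 0.05 and DESeq2 called 0. The median there was 0.10, with 0.51 in mouse 460 and between −0.08 and 0.14 in the others, and it was −0.02 without mouse 460.

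LPS was then compared within piericidin A-treated WT cells. Here 2 of 45 fell, both assembly factors, against 51.9 percent of all genes called, and with the block 6 passed (1 higher, 5 lower) against 62.5 percent. With library totals alone 39 passed, all lower, against 75.9 percent of all genes and 61.5 percent lower. Ndufaf4 stood at 6.97, 7.67, 6.95, 8.75 and 7.37 CPM with piericidin A and at 4.56, 4.73, 2.24, 4.05 and 2.66 CPM with both. The groups did not overlap, and the log2 fold change was −1.04 (SE 0.23, edgeR adjusted p = 0.000196), the largest of any member in the comparisons run with TMM scaling. Ndufaf3, its partner in assembly, went from 10.7 ± 0.369 to 7.97 ± 1.05 CPM, with a log2 fold change of −0.43 (SE 0.17, edgeR adjusted p = 0.0313, lost without mouse 449, 452, 496 or 520).

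Whether piericidin A altered the LPS effect in WT was tested as an interaction. By edgeR 0 of 45 members passed, against 4.75 percent of all genes, with 0 at an unadjusted p under 0.05 and 0 by DESeq2. With the mouse as a block 0 passed too, with 2 at an unadjusted p under 0.05, against 17.4 percent of all genes. Ndufs4 illustrates the spread. It stood at 28.6 ± 3.69 CPM with both agents and 31.2 ± 4.57 CPM with LPS alone, while piericidin A alone gave 25.3 ± 5.01 CPM, and its interaction was −0.48 (adjusted p = 0.419).

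**Figure D4:**
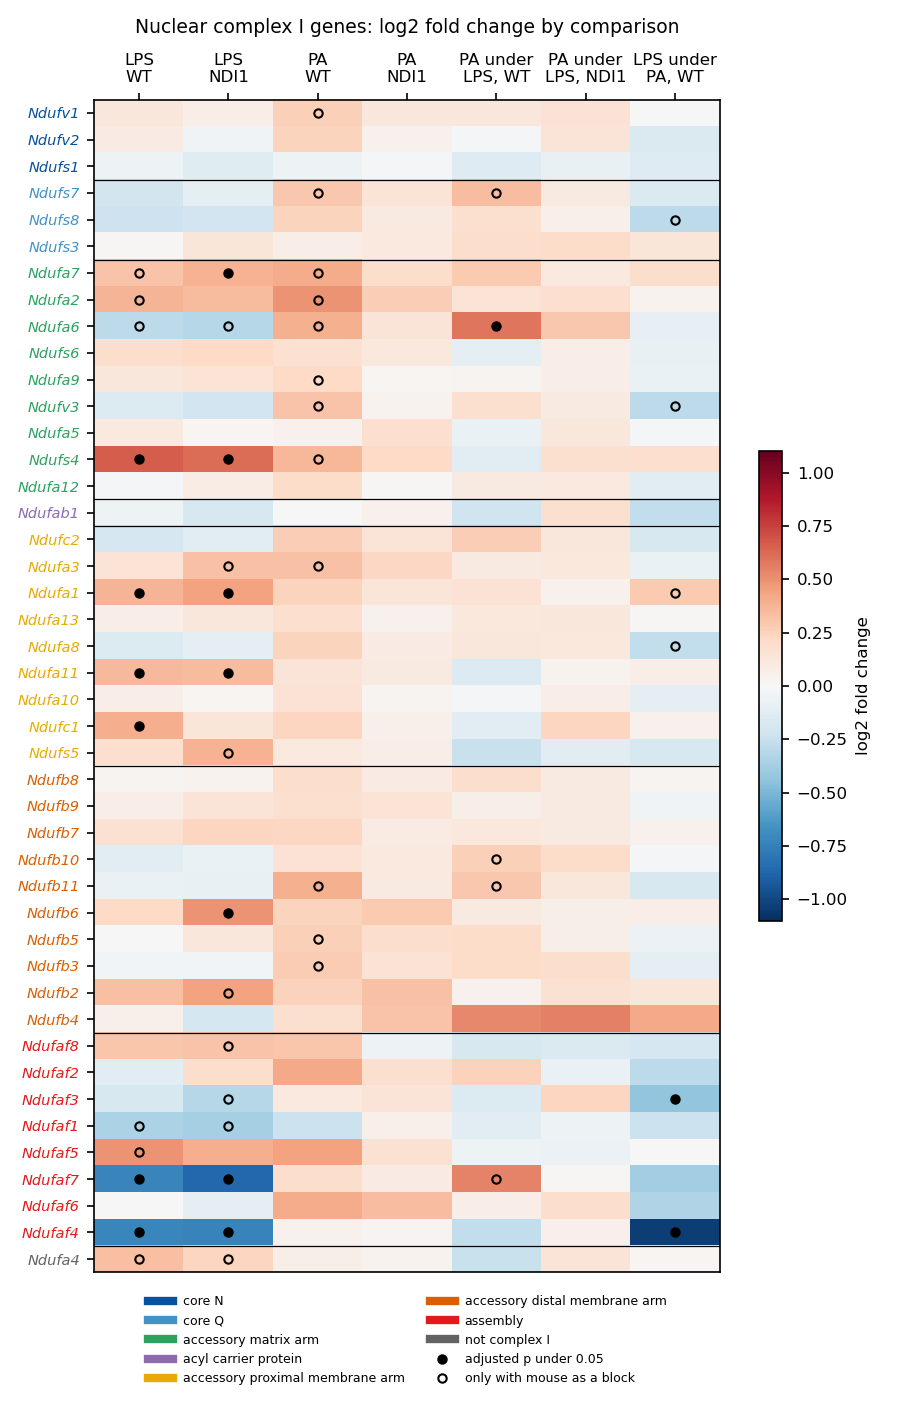
Log2 fold changes of 44 of the 45 tested Nduf genes in 7 comparisons (PA, piericidin A), grouped by module, with TMM scaling. A filled dot marks edgeR adjusted p under 0.05 and an open dot a pass with the mouse as a block alone. Ndufaf4 and Ndufaf7 fall with LPS in both genotypes, the WT column of piericidin A without LPS is mostly above 0 with open dots, and no dot stands in the 2 columns of piericidin A in NDI1.

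NDI1 and WT BMDMs were compared directly under each treatment. By edgeR 0 of 45 Nduf genes differed in any of the 4 comparisons, and DESeq2 also called 0. Over all genes the share that differed was 0 percent untreated, 0 percent with LPS, 7.8 percent with piericidin A and 12 percent with both. At an unadjusted p under 0.05 there were 0, 0, 0 and 2 members. The member medians were −0.04 untreated, 0.00 with LPS, −0.14 with piericidin A and 0.02 with both. In untreated cells 35 of 45 intervals lay within ±0.5 on the log2 scale and all 45 within ±1. With piericidin A 37 of 45 values were below 0, and the summed level of the 36 subunits was 1463 ± 188 CPM in WT and 1330 ± 202 CPM in NDI1 (SD, n = 5). Without mouse 447 the NDI1 value was 1244 ± 74.8 CPM (n = 4), which is further from WT. The member median with piericidin A was −0.23 without mouse 447, −0.08 without mouse 453, and −0.09 without mouse 461 or 496, and 0 members passed in each case, with 7 at an unadjusted p under 0.05 without mouse 447. With both agents the median ran from −0.07 without mouse 460 to 0.13 without mouse 453. The LPS effect did not differ between genotypes for any member either (0 by edgeR against 0 percent of all genes, 0 at an unadjusted p under 0.05, 0 by DESeq2), and 18 of 45 intervals of the difference lay within ±0.5. The same held for piericidin A under LPS (0 by edgeR against 0.979 percent of all genes, 0 at an unadjusted p under 0.05, 0 by DESeq2), where Ndufaf7 had the largest value, −0.53 (edgeR adjusted p = 0.513). With the mouse as a block 0 members passed there, with 2 at an unadjusted p under 0.05, against 9.51 percent of all genes.

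Related genes are given by counts and medians. With LPS in WT, the 36 Nduf subunits had 4 calls higher and 0 lower with a median of 0.08, while 38 nuclear subunits of complexes II to V had 22 higher and 0 lower with a median of 0.35, against 31.5 percent of all genes higher and 31 percent lower. All 5 tested mt-Nd genes, which encode the membrane core of complex I, had values above 0 with a median of 0.12, and 0 passed in edgeR (0 at an unadjusted p under 0.05). Of 76 mitochondrial ribosomal genes 14 rose and 21 fell, with a median of −0.01. These medians are relative to the bulk of genes, and with library totals alone the median over all genes lay 0.78 below 0.

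Assembly factors without an Nduf symbol were also counted. With LPS in WT, 5 of 11 fell and 1 rose, with a median of −0.23, against 62.5 percent of all genes called. For the Ndufaf genes 2 of 8 fell, with a median of −0.15, and the difference between the lists was not tested. Tmem126b, part of the complex that assembles the membrane arm, fell by 1.87 (edgeR adjusted p = 3.84e-10) and Tmem186, of the same complex, fell by 1.18 (adjusted p = 3.89e-06). Ecsit, which takes part in this complex and in Toll-like receptor signalling, fell by 0.94 (adjusted p = 0.000799), Dmac2 fell by 1.54 and Dmac1 fell by 0.36. Foxred1 rose by 0.57 (adjusted p = 6.50e-05). These values are relative to the median gene as above. Of 9 transcriptional regulators of respiratory genes 7 rose and 1 fell (Yy1, −0.22), against 31.5 percent of all genes higher and 31 percent lower. Those that rose were Nrf1 (0.45), Gabpa (0.68), Gabpb1 (1.39), Esrra (0.54), Ppargc1b (1.42), Tfam (0.47) and Hif1a (1.12). The rises of Gabpb1, Ppargc1b and Hif1a were larger than the shift of all genes by 0.78 between the scalings, and the other rises were smaller.

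With piericidin A in WT, complexes II to V had 10 of 38 higher and 0 lower with a median of 0.32, beside 0 of 36 and 0.24 for the Nduf subunits, against 14.8 percent of all genes called. The mt-Nd genes lay on the other side of 0, with a median of −0.52, all 5 below 0 and 0 past the test in edgeR (0 at an unadjusted p under 0.05). Under LPS their median was −0.35, and 0 of 38 genes of complexes II to V passed (1 at an unadjusted p under 0.05) with a median of 0.07, beside 1 of 36 and 0.12 for the Nduf subunits, against 16.7 percent of all genes called. Nuclear and mitochondrial genes of complex I thus had medians of opposite sign with piericidin A in WT, by value alone. The mt-Nd levels varied widely between mice. In WT mt-Nd1 stood at 414 ± 200 CPM untreated and 276 ± 146 CPM with piericidin A, and mt-Nd5 at 484 ± 211 and 332 ± 75.1 CPM (SD, n = 5).

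**Figure D5:**
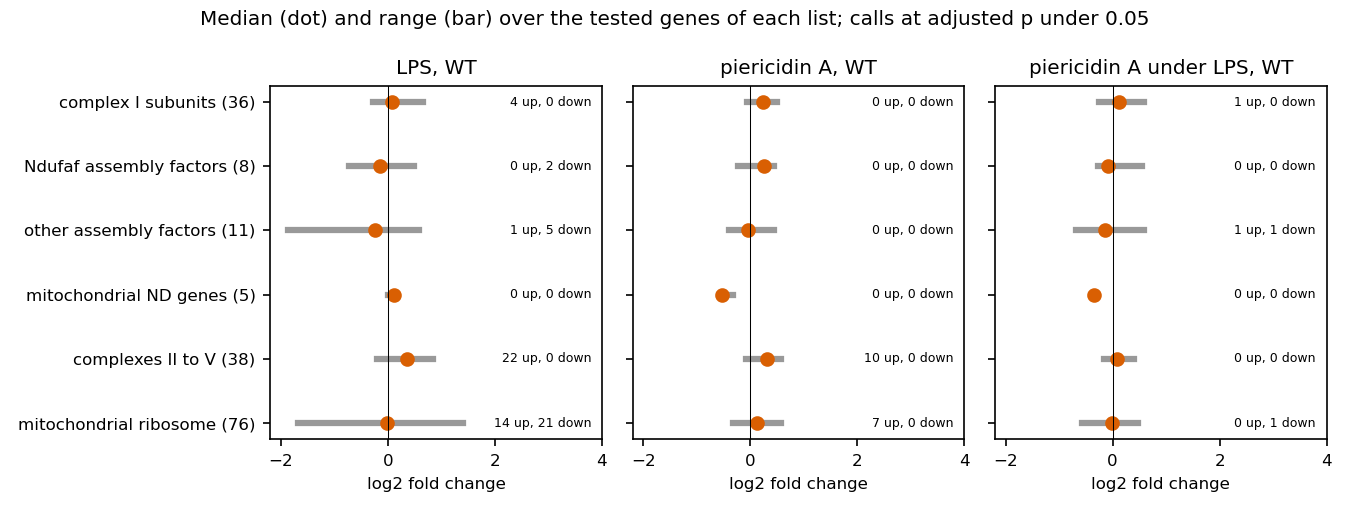
Median (point) and range (line) of log2 fold changes in each gene list for LPS, piericidin A, and piericidin A under LPS in WT BMDMs, with the number of genes called higher and lower, TMM scaling. With LPS complexes II to V lie highest among the respiratory chain lists (0.35), and with piericidin A the mt-Nd genes lie below 0 (−0.52) while the nuclear lists of respiratory subunits lie above it.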

How the data were processed

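Reads were polyA-selected RNA of BMDMs (NEBNext Ultra). Per the submitters' processing notes, the authors used bcl2fastq, Trimmomatic, STAR and HTSeq with mm10. The annotation release and the strand setting are not given in the sources used here. The authors deposited counts of reads per gene without normalization, and 1 column of undetermined reads was left out of every comparison. Each library was grouped by its genotype and treatment labels.

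Counts were tested in R 4.3.3 with edgeR 4.0.16 (filterByExpr, TMM, 8 group means over 40 libraries, glmQLFTest, limma 3.58.1 loaded with it), adjusted by Benjamini-Hochberg over 11853 genes with a threshold of 0.05. SE is the log2 fold change over the root of F. Scripts were tested on simulated data. Totals ran from 6950748 to 13552070 counts (median 10361773.5), and counting floors (3 counts) cover counting error only. No libraries were duplicates (chi-square per degree of freedom at least 9.35).

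Libraries with the same title number came from the same mouse. Their deviations from group means correlated at 0.453 on average (0.0995 to 0.769, 60 pairs), against −0.107 for 240 pairs of different mice. The study's methods name no block, so the block was an alternative. Others were DESeq2 1.42.0, RLE factors, library totals without factors, no filter or at least 10 counts in every library, only the compared groups, and leaving out each mouse.

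Members, lists and rules were chosen with earlier results of these data known. Named genes were core subunits, the Ndufaf genes, Ndufa4 and Ndufa4l2, and up to 5 members that rose and 5 that fell most in the WT comparisons and genotype differences for piericidin A, past the threshold and alike in all WT mice. Levels per kb used the principal transcript. Promoter letters were searched in RefSeq windows. The values of 1 gene are not reported here, though counts and medians over all members include it.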

Additional observations from a re-analysis of the deposited data

Results flagged for a closer look

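In 80 groups of 5 libraries (the summed levels and the named called genes), 6 held 1 library far from the other 4, and chance alone would mark about 1 group in 20. In WT with LPS, the summed level of the 8 assembly factors was 53.8 CPM in mouse 453 and 43.5 to 45.3 CPM in the other mice. In untreated NDI1, Ndufa11 was 25.6 CPM in mouse 521 and 20.2 to 20.9 CPM in the others. With piericidin A in NDI1, mouse 447 stood apart in 3 measures. Its subunits summed to 1671 CPM against 1159 to 1307 CPM in the others, its assembly factors to 68.5 CPM against 50.9 to 54.8 CPM, and Ndufaf3 stood at 14.4 CPM against 8.90 to 10.3 CPM. In NDI1 with both agents, Ndufaf4 was 8.55 CPM in mouse 460 and 4.18 to 4.74 CPM in the others.

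The column of reads given to no library, which entered no comparison, held 67195 counts on Nduf genes of 29104648 in all. This is 0.231 percent, beside 0.0905 to 0.229 percent in the 40 libraries.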

How the results depend on the processing

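Of 14 calls of single genes, 6 passed in all 12 settings, 8 were lost in at least 1 setting, and 7 of these changed sign with library totals alone. The number of Nduf genes called with piericidin A in WT was 0 in edgeR (14.8 percent of all genes) and 1 with DESeq2 (2161 genes in all). It was 4 with only the compared groups, for which the share of all genes is not given here. With the mouse as a replicate block it was 12 (34.2 percent of all genes). The replicate block also gave 13 in place of 6 for LPS in WT, 16 in place of 7 for LPS in NDI1, 5 in place of 1 for piericidin A under LPS in WT and 6 in place of 2 for LPS under piericidin A in WT, and left the counts of members in the other comparisons within mice and the differences between genotypes of the treatment effects at 0, while over all genes it called 17.4 percent for the interaction in WT, 8.96 and 9.51 percent for the genotype differences of piericidin A without and under LPS, and 0 percent for that of LPS and for piericidin A in NDI1. It could not be used for NDI1 against WT, since each mouse has 1 genotype. For LPS in WT the number was 3 with no filter on low counts. Leaving out a mouse gave 1 to 5 for LPS under piericidin A (1 without mouse 449, 452 or 520, 5 without mouse 453), 4 to 6 for LPS in WT and 5 to 7 in NDI1.

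Library totals without factors, added after the data were seen, gave 41 and 36 calls for LPS in WT and NDI1 and 39 for LPS under piericidin A, and moved the member medians to −0.70, −0.69 and −0.65. Then the values with LPS in WT were −0.11 for Ndufs4, −0.38 for Ndufc1, −0.40 for Ndufa1 and −0.41 for Ndufa11, and in NDI1 −0.15 for Ndufs4, −0.32 for Ndufa1 and −0.42 for Ndufa11. In this setting the bulk of genes is left shifted (by −0.78, −0.77 and −0.62 in these 3 comparisons), and the origin of that shift was not tested. Ndufaf4 and Ndufaf7 with LPS in both genotypes, Ndufa6 under LPS and Ndufaf4 under piericidin A passed in all 12 settings. For the falls of Ndufaf4 and Ndufaf7 library totals alone was no check, since it shifts the bulk of genes down with LPS. The member medians with the block and without each mouse, and the subunit sum without mouse 447, were also added after the data were seen. Assembly factors rest on few counts, which limits what could be detected in them.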
